A study of Homo sapiens with 6 samples.

Results

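The genes described here encode the initiation and elongation factors of cytosolic translation, with the enzymes that modify them. Rows of the count table were taken when the gene name began with EIF1 to EIF6, EEF1 or EEF2, leaving out names that end in P and digits and antisense or intronic transcripts, which gave 66 of 22004 genes. Of these, 64 carry the name of a factor or a modifying enzyme and 2 are long non-coding RNAs named for a divergent neighbour, EIF3J-DT and EIF2AK3-DT. A filter on low counts left 65 of them to be tested. EIF3CL was not tested, with 3, 0 and 2 counts in the DMSO libraries and 1, 3 and 10 in the AVJ16 libraries.

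The measurements were RNA-seq of H1299, a human non-small cell lung carcinoma line, labelled wild type with epithelial-like cells. Cells received 1.5 µM AVJ16 for 48 h or DMSO, the solvent alone. AVJ16 is a small molecule that inhibits IGF2BP1. This RNA-binding protein controls how stable its target mRNAs are and how well they are translated, and the series asks how the inhibitor changes RNA levels. There were 3 libraries per treatment. They carry the column letters of the table, where A to C are the DMSO libraries and D to F the treated ones. Biological repeats are given as the general practice in the study's methods, which list the RNA-seq as replicated without saying whether the 3 libraries of a treatment came from separate cultures, and the labels do not say so either. The p-values measure the spread between these libraries, and if they share a culture that spread is technical. The design has 1 cell line, 1 dose and 1 time.

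Translation initiation starts when eIF2, a GTPase of alpha, beta and gamma subunits, brings the initiator methionyl-tRNA to the small ribosomal subunit, where eIF3, eIF1, eIF1A and eIF5 are bound. The eIF4F complex, built from the cap-binding protein eIF4E, the scaffold eIF4G and the RNA helicase eIF4A, attaches this assembly to the capped end of the mRNA, which is then scanned to the start codon. Elongation needs eEF1A to deliver aminoacyl-tRNAs and eEF2 to translocate the ribosome. Stress is read through eIF2: any of 4 kinases can phosphorylate its alpha subunit, which then blocks the exchange factor eIF2B and lowers initiation.

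Library totals ran from 19353830 to 30253721 counts. Library D stood apart from the others: mitochondrially encoded genes made up 11.9% of its counts against 5.13 to 6.66% in the other libraries. A model that weights libraries by their quality gave it a weight of 0.155, against 0.753 to 4.26 for the rest. Values are therefore given with all 6 libraries and, where it changes the call, without D. IGF2BP1 mRNA was present in every library, at 272 to 280 CPM (read counts scaled to a common library total) with DMSO and 223 to 256 CPM with AVJ16. Of the 4 epithelial markers, KRT8 and KRT18 were at 299 to 634 CPM, while EPCAM and CDH1 did not exceed 1.63 CPM. The listed lung-lineage markers were at most 1.09 CPM and those of immune, endothelial, fibroblast and red cells at most 2.66 CPM or were not among the genes of the table.

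Many mRNAs of the translation machinery begin with a 5′ terminal oligopyrimidine (TOP) tract, a C at the first transcribed base followed by pyrimidines, through which mTOR controls their translation. A RefSeq promoter (GRCh38.p14, 250 bases before to 50 after the annotated start) was matched for 52 of the 66 genes. A C at the start followed by at least 4 pyrimidines was found in 12 of these 52 (23.1%), against 4.04% of the 27305 promoters in the table and 5.29% of 11246 promoters of tested genes. This strict form was chosen after the sequences had been seen. Counting a C within 10 bases of the start that opens a run of 5 pyrimidines, 23 of the 52 (44.2%) had one, against 33.3% of all promoters. The 12 starts are shown because they include EIF4A2, the factor with the largest fold change past the threshold. Each line gives 10 bases before and 20 from the start on the coding strand, with the pyrimidine run in capitals.
EIF4A2, chr3:186783567-186783596, plus strand: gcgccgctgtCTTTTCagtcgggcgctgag
EIF4B, chr12:53006446-53006475, plus strand: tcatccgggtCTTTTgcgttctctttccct
EIF2A, chr3:150546777-150546806, plus strand: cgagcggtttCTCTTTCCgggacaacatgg
EIF2D, chr1:206612446-206612475, minus strand: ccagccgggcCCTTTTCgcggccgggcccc
EIF2S3, chrX:24054946-24054975, plus strand: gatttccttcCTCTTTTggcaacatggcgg
EIF2S3B, chr12:10505880-10505909, plus strand: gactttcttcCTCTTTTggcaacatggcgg
EIF3D, chr22:36529147-36529176, minus strand: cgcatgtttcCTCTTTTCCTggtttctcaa
EIF3F, chr11:7987327-7987356, plus strand: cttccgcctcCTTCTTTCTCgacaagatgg
EIF3K, chr19:38619178-38619207, plus strand: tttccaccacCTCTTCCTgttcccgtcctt
EIF3M, chr11:32583821-32583850, plus strand: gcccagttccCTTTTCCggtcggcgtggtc
EEF1A1, chr6:73521013-73521042, minus strand: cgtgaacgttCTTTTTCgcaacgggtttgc
EEF2, chr19:3985444-3985473, minus strand: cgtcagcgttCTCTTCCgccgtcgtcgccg

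The runs were 5 to 10 bases long. EIF2S3B, a near-identical copy of EIF2S3 on another chromosome, shared its run and the bases after it. By class, the strict run was present in 4 of the 5 EIF2 promoters, 4 of 8 EIF3, 2 of 12 EIF4 and 2 of 7 EEF promoters, and in none of the EIF1, EIF2B, EIF2AK or EIF5 and EIF6 promoters in the table. The 12 factors with the run had a median log2 fold change (AVJ16 over DMSO) of 0.17, with 10 of 12 above 0. The values were 0.02 and 20 of 40 for the genes whose matched promoter lacked it, among them EIF3J-DT and EIF2AK3-DT. The threshold was passed by 3 of the 12 (25%), all higher, and by 4 of the 40 (10%), with 2 higher and 2 lower. Of all genes 5.87% were higher and 8.77% lower. The 2 higher genes without the run were EIF1B and the non-coding EIF3J-DT. EIF2S2 and EIF3H, which also passed, had no matched promoter and lie outside this split. Without library D the medians were 0.18 with the run and 0.11 without it. In that fit 50% and 47.5% passed, beside 37.2% of all genes. These counts describe the sequences and were not tested.

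The E-box CACGTG, the same on both strands and the site type of MYC and related factors, was present in 13 of 52 promoters (25%), against 7.43% of all promoters and 10.2% of those of tested genes. The C/EBP-ATF composite motif TGATGNAA, searched on both strands, was present in none of the 52, against 3.67% of all promoters and 1.61% of those of tested genes. The windows below show the E-box, in capitals, upstream of the cap-binding and scaffold genes of eIF4F and of 2 other initiation factors, with 12 bases on each side.
EIF4E, chr4:98929341-98929370, minus strand: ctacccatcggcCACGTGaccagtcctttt
EIF4E, chr4:98929188-98929217, minus strand: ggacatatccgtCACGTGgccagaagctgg
EIF4G1, chr3:184314450-184314479, plus strand: ggctgtggctgtCACGTGacggggcggggg
EIF4G1, chr3:184314527-184314556, plus strand: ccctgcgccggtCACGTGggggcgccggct
EIF4B, chr12:53006422-53006451, plus strand: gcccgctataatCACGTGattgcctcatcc
EIF1B, chr3:40309641-40309670, plus strand: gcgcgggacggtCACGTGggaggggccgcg

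The 13 genes with an E-box had a median log2 fold change of 0.15 and 1 of them, EIF1B, passed the threshold (7.69%). The 39 with a matched promoter and no E-box had a median of 0.06, and 6 of them passed (15.4%), beside 14.6% of all genes. Without library D the medians were 0.20 and 0.11, and 38.5% and 51.3% passed, beside 37.2% of all genes.

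AVJ16 treatment was followed by higher levels of a few initiation factors and lower levels of others. Of the 65 tested, 9 passed an adjusted p of 0.05 (edgeR quasi-likelihood test, Benjamini-Hochberg over all 16330 genes tested), which is 13.8% beside 14.6% of all genes. The 7 that rose (10.8%, beside 5.87% of all genes) were EIF4A2, EIF2S2, EIF3H, EIF1B, EIF2A, EIF3M and the non-coding EIF3J-DT. The 2 that fell (3.08%, beside 8.77% of all genes) were EIF4E3 and EIF4G2. This split depended on the scaling: under library size alone 3 were higher and 4 lower, and the calls of EIF1B, EIF2A, EIF3M and EIF3J-DT were lost at adjusted p-values of 0.0707, 0.11, 0.131 and 0.0598. With both directions counted together, the share past the threshold was near that of all genes. For 26 of the 65 (40%) every treated library lay on one side of every DMSO library, beside 37.1% of all genes. In bulk RNA a lower level may come from less RNA per cell or from fewer cells of a kind, and these cannot be told apart.

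**Figure D1:**
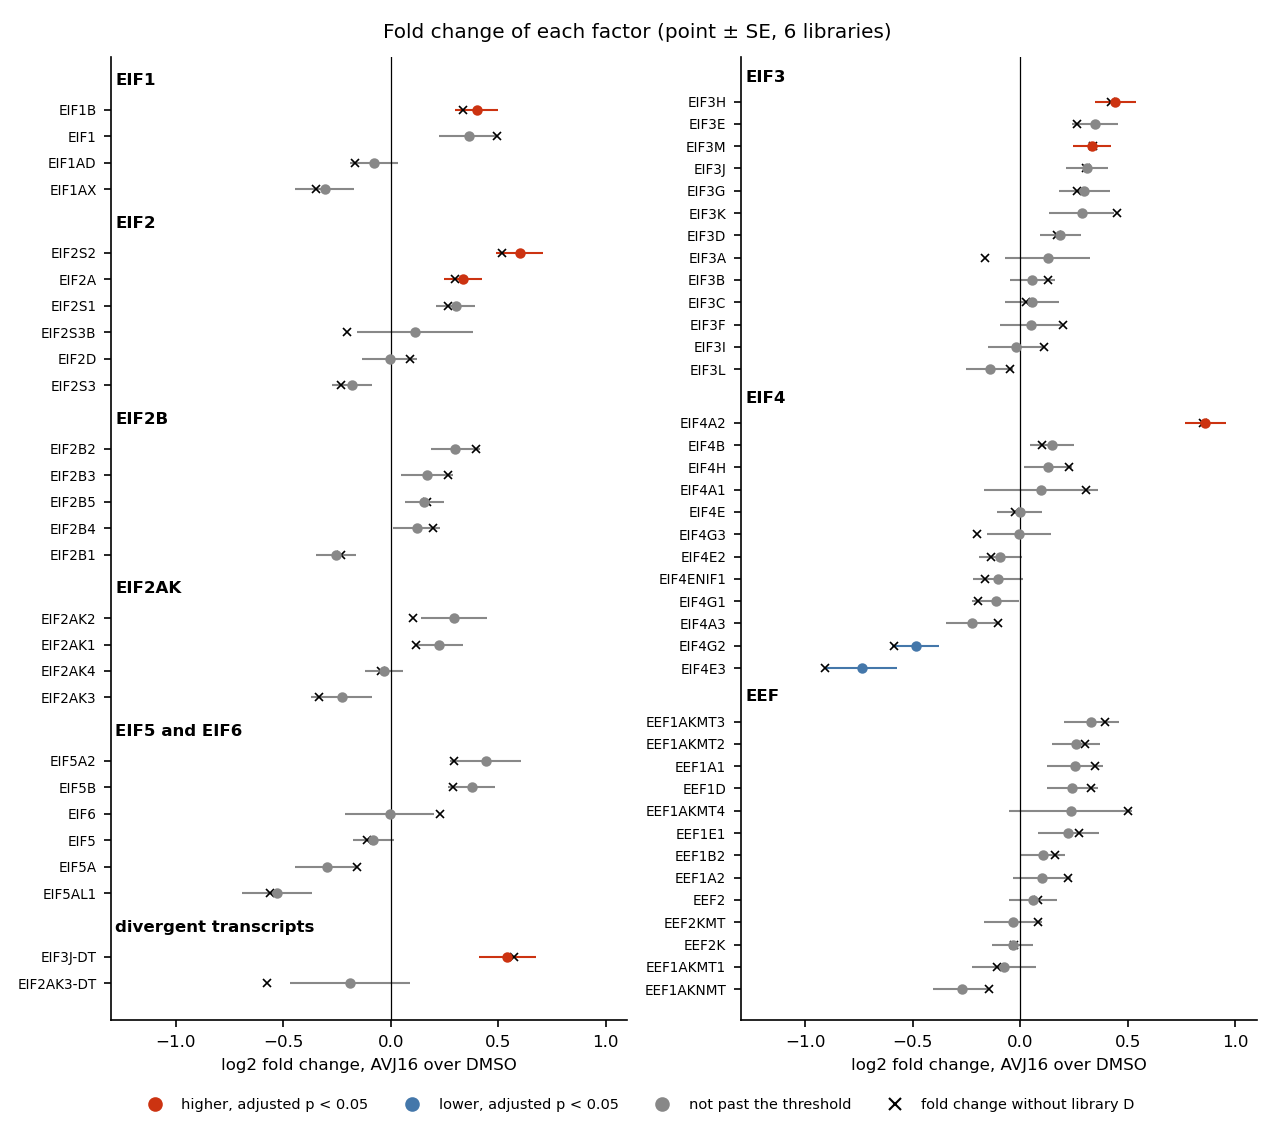
Log2 fold change (AVJ16 over DMSO, x axis) of the 65 tested genes, grouped by class. Points and bars give the estimate ± SE from all 6 libraries, coloured by call, and crosses give the estimate without library D. EIF4A2 lies farthest to the right at 0.86 and EIF4E3 farthest to the left at -0.74.

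Without library D, 31 of the 65 passed (47.7%), beside 37.2% of all genes. Of these, 23 were higher, where 17.6% of all genes were, and 8 were lower, where 19.6% of all genes were. Each of the 9 genes named above was among the 31. For 21 of the 65 (32.3%) library D lay on the other side of the DMSO mean from E and F, as it did for 27.6% of all genes tested. One of them was EIF3A, the largest subunit of eIF3, at 671, 740 and 662 CPM with DMSO, 1032 CPM in D, and 574 and 658 CPM in E and F. EIF6, which keeps the large ribosomal subunit from joining early, was the reverse, at 124, 110 and 111 CPM with DMSO, 74 CPM in D, and 142 and 127 CPM in E and F. The higher mitochondrial share of D moved with these values, and its part in them was not tested.

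**Figure D2:**
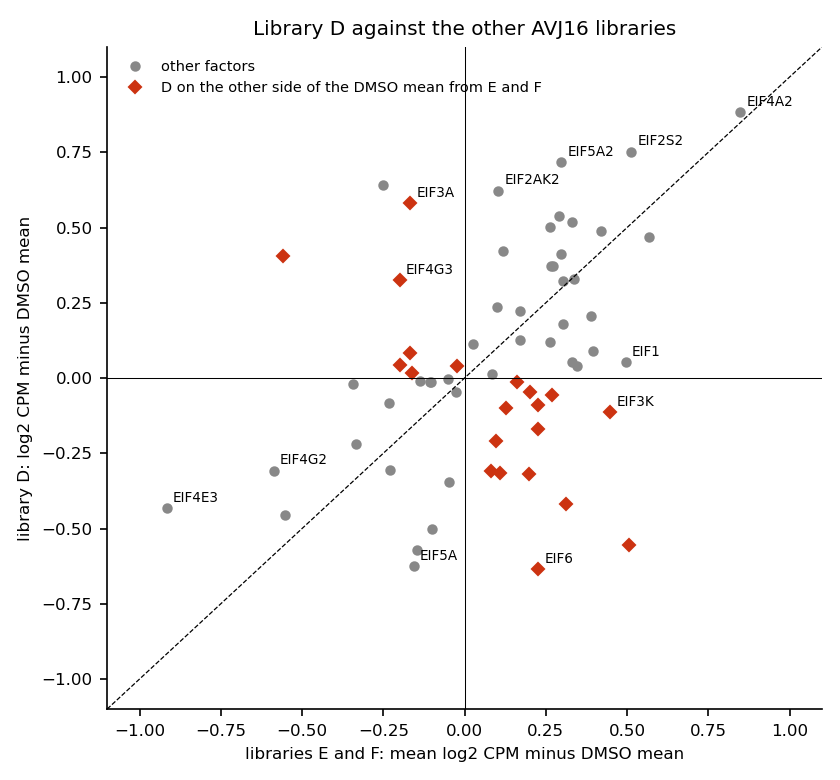
Log2 CPM minus the DMSO mean for each of the 65 genes, in library D (y axis) and averaged over the AVJ16 libraries E and F (x axis). The dashed line marks equal change, and the 21 diamonds mark genes for which D lies on the opposite side of the DMSO mean from E and F, among them EIF3A, EIF4G3, EIF3K and EIF6.

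The eIF4 class, which recruits the mRNA, held the largest change in each direction. EIF4A2, a DEAD-box helicase that unwinds the 5′ end of the mRNA as part of eIF4F, stood at 388, 415 and 389 CPM with DMSO and at 733, 683 and 748 CPM with AVJ16. The groups did not overlap, and library D lay within the range of E and F. The rise was 1.82-fold, a log2 fold change of 0.86 with a 95% interval of 0.65 to 1.07 (SE 0.09, adjusted p = 0.00146, edgeR). EIF4A2 passed the threshold with each library left out in turn and in each of the 8 other settings tried, with a log2 fold change of 0.75 to 0.90. Small nucleolar RNA genes overlap 10.5% of its exonic bases on the same strand, and other genes' exons lie opposite 7.4%.

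Its paralog EIF4A1, usually the main eIF4A of growing cells, could not be read from this table. The row held only 2.73 to 4.98 CPM, and 47.4% of the gene's exonic bases are shared on the same strand with other annotated genes, among them the readthrough SENP3-EIF4A1. Its libraries were 3.62, 2.73 and 4.98 CPM with DMSO and 2.74, 4.45 and 4.66 CPM with AVJ16, and the groups overlapped. The log2 fold change was 0.10 (SE 0.26, adjusted p = 0.843), with a 95% interval of -0.50 to 0.69. The third paralog, EIF4A3, is a core protein of the exon junction complex that marks spliced mRNA. It was at 129, 132 and 125 CPM with DMSO and 90.9, 120 and 120 CPM with AVJ16 (log2 fold change -0.23, adjusted p = 0.248). Per kilobase of the canonical transcript, the EIF4A2 level was 4.13 ± 0.08 times that of EIF4A3 with DMSO and 8.93 ± 1.66 times with AVJ16 (SD, n = 3 each). This ratio and those below were chosen after the values were seen and are given without a test. Of 7 ratios formed in this way, EIF1B over EIF1 and EEF1A1 over EEF2 overlapped between treatments. They were 0.381 ± 0.0245 and 1.62 ± 0.118 with DMSO, and 0.402 ± 0.107 and 1.85 ± 0.186 with AVJ16.

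EIF4E3, an atypical cap-binding protein of the eIF4E family, was low in all libraries, at 14.3, 13.1 and 16.1 CPM with DMSO and 10.7, 7.4 and 7.91 CPM with AVJ16. The log2 fold change was -0.74 (SE 0.16, adjusted p = 0.0193), a fall, with D the nearest of the treated libraries to the DMSO values. EIF4G2, also called DAP5, is an eIF4G relative that lacks the eIF4E-binding region and serves cap-independent initiation. It was at 827, 781 and 828 CPM with DMSO and 656, 524 and 557 CPM with AVJ16, without overlap. It fell by 0.49 (SE 0.11, adjusted p = 0.02). Both calls were lost when any library other than D was left out, with an adjusted p of up to 0.1 for EIF4E3 and 0.109 for EIF4G2, and held without D at 5.16e-05 and 5.49e-05.

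The canonical partners in these families did not pass. EIF4E, the cap-binding subunit, was at 69.4, 64.5 and 77.5 CPM with DMSO and 72.3, 69.5 and 68.9 CPM with AVJ16, and the groups overlapped. The 95% interval of its log2 fold change was -0.24 to 0.23 (SE 0.10, adjusted p = 0.986). EIF4G1, the main scaffold, was at 748, 818 and 731 CPM with DMSO and 788, 644 and 690 CPM with AVJ16, with overlap. Its log2 fold change was -0.11 (SE 0.11, adjusted p = 0.522, 95% interval -0.36 to 0.13). Per kilobase, EIF4E3 stood at 0.0499 ± 0.000553 of the EIF4E level with DMSO and 0.03 ± 0.00543 with AVJ16 (SD, n = 3 each). EIF4G2 per kilobase was 1.52 ± 0.137 times EIF4G1 with DMSO and 1.17 ± 0.0184 times with AVJ16. In both ratios the treated libraries lay below all DMSO libraries.

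Of the other eIF4 genes, EIF4B and EIF4H, which stimulate the helicase, had log2 fold changes of 0.15 and 0.13. EIF4E2, a cap-binding protein of translational repression, and EIF4ENIF1, which carries eIF4E into the nucleus, were at -0.09 and -0.10. EIF4G3, the second eIF4G scaffold, was at 209, 213 and 203 CPM with DMSO, 261 CPM in D, and 174 and 189 CPM in E and F. It passed only without D (log2 fold change -0.20, adjusted p = 0.0458). EIF4H passed in the other direction without D (0.23, adjusted p = 0.0283) and in the quality-weighted model. The class median was -0.05, with 4 of 12 members above 0, and the all-gene median was -0.01.

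**Figure D3:**
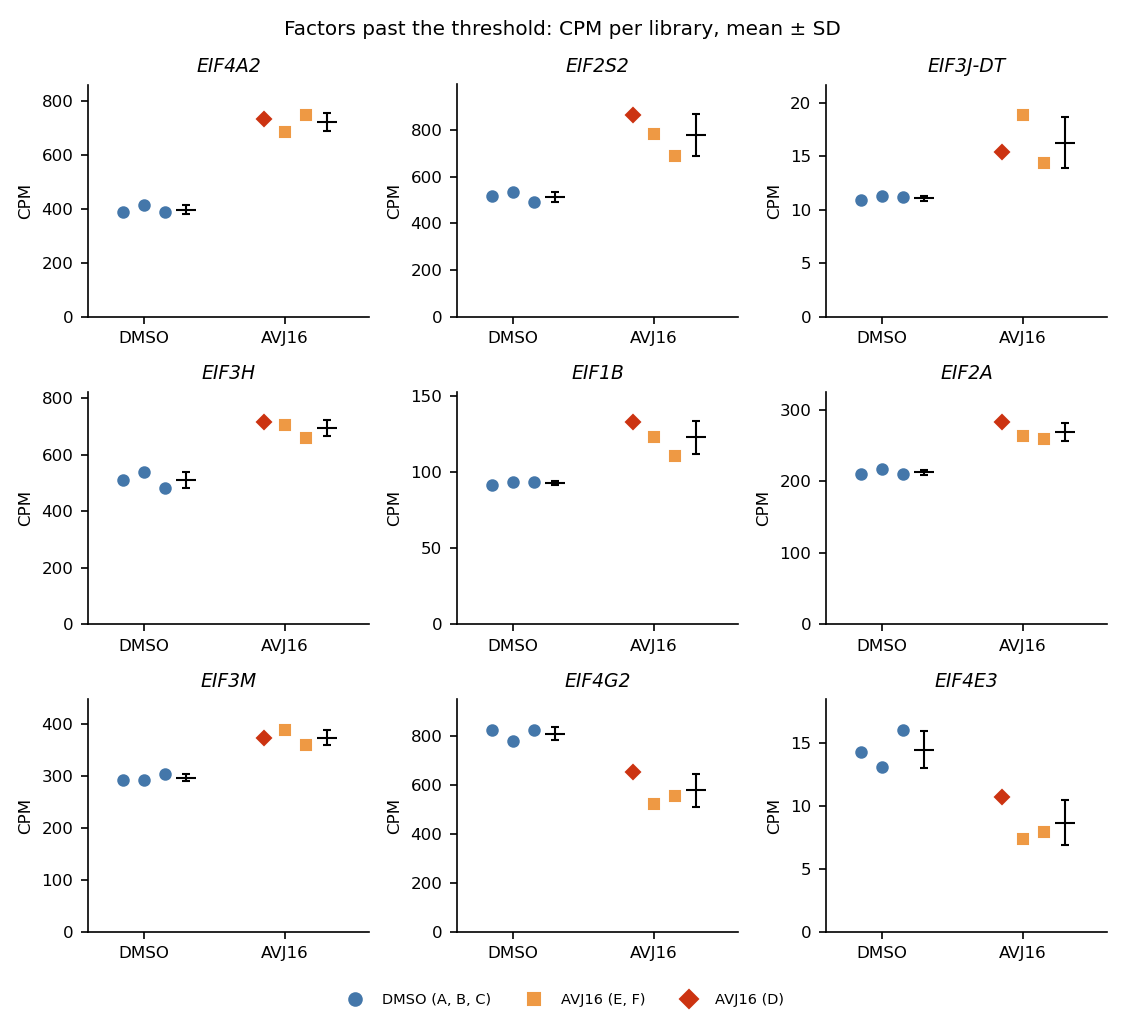
CPM (y axis) in each library for the 9 genes past the threshold, with the mean ± SD of each treatment (n = 3) in black. Circles are DMSO, squares AVJ16 libraries E and F, and the diamond library D. In every panel the treated libraries lie on one side of all DMSO libraries.

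The subunits of eIF2, which carries the initiator tRNA, pointed in different directions, and only the beta subunit passed with all libraries. EIF2S2, the beta subunit that contacts eIF5 and eIF2B, was at 515, 534 and 491 CPM with DMSO and 864, 782 and 686 CPM with AVJ16. The groups did not overlap and D was the highest. The rise was 1.51-fold (log2 0.60, SE 0.11, adjusted p = 0.0093, edgeR). The call was lost without A or without C, at an adjusted p of up to 0.0562, and held in the other 12 alternatives. EIF2S1, the alpha subunit that the stress kinases phosphorylate, was at 192, 182 and 180 CPM with DMSO and 239, 219 and 225 CPM with AVJ16, also without overlap. Its log2 fold change of 0.30 (SE 0.09) just missed the threshold (adjusted p = 0.0536), and it passed without D (adjusted p = 0.0112) and with DESeq2. EIF2S3, the gamma subunit that binds GTP and the tRNA, was at 566, 551 and 577 CPM with DMSO and 533, 472 and 490 CPM with AVJ16. Its log2 fold change was -0.18 (SE 0.09, adjusted p = 0.228), and it passed without D (-0.23, adjusted p = 0.0248).

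Per kilobase, the EIF2S2 level was 1.23 ± 0.08 times that of EIF2S3 with DMSO and 2.11 ± 0.187 times with AVJ16 (SD, n = 3 each). EIF2S1 was 0.272 ± 0.0121 of EIF2S3 with DMSO and 0.38 ± 0.00726 with AVJ16. Neither ratio overlapped between treatments, and library D lay close to E and F in both. EIF2S3B, the copy of EIF2S3, held 2.58 to 6.03 CPM, and reads common to both copies could be assigned to either.

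EIF2A shares its name with eIF2 but is a separate single protein that can bring initiator tRNA to some non-standard start codons. It was at 210, 217 and 211 CPM with DMSO and 283, 264 and 259 CPM with AVJ16. The rise of 0.34 (SE 0.09, adjusted p = 0.0351) held without D (adjusted p = 0.00502) and was lost when any other library was left out, at an adjusted p of up to 0.178. EIF2D, which acts in ribosome recycling and tRNA delivery outside the eIF2 route, had overlapping groups, with a 95% interval of -0.30 to 0.29.

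None of the 5 subunits of the exchange factor eIF2B passed in edgeR or DESeq2. At an unadjusted p under 0.05 were 2 of them, and 4 passed in the quality-weighted model, which called 7136 of 16330 genes. The share of all genes at an unadjusted p under 0.05 is not given here, so such counts have no background beside them. EIF2B1, the regulatory alpha subunit, had the smallest p of the class and pointed down, at 69.8, 70.7 and 67.5 CPM with DMSO and 56.1, 61.6 and 56.7 CPM with AVJ16. Its log2 fold change was -0.25 (SE 0.09, adjusted p = 0.105), and -0.23 without D (adjusted p = 0.0358). The beta subunit EIF2B2 pointed up, at 69.4, 71 and 65.9 CPM against 73.1, 92.5 and 88.4 CPM (log2 0.30, adjusted p = 0.108), and passed without D at 0.39 (adjusted p = 0.00122). For EIF2B2 23.6% of exonic bases lie opposite another gene's exons, and 15.6% for EIF2B1. EIF2B3 also passed without D (0.27, adjusted p = 0.0194), while EIF2B4 and the catalytic EIF2B5 did not (0.20 and 0.17).

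None of the 4 eIF2 alpha kinases passed in edgeR or DESeq2, and none had an unadjusted p under 0.05. In the quality-weighted model 1 passed, where 7136 of 16330 genes did. EIF2AK1, the heme-regulated kinase HRI, was at 230, 243 and 221 CPM with DMSO and 310, 245 and 257 CPM with AVJ16 (log2 0.23, SE 0.11, adjusted p = 0.208). EIF2AK2, the double-stranded RNA sensor PKR, was at 114, 102 and 124 CPM against 174, 117 and 126 CPM (log2 0.29, SE 0.15, adjusted p = 0.233). In both the highest value was library D. EIF2AK3, the endoplasmic reticulum stress kinase PERK, was at 13.6, 13.3 and 14.8 CPM against 13.7, 9.89 and 12.1 CPM (log2 -0.23, SE 0.14, adjusted p = 0.318). It was the only kinase past the threshold without D (-0.33, adjusted p = 0.0333). EIF2AK4, the amino acid sensor GCN2, was at 147, 148 and 144 CPM against 146, 134 and 149 CPM, and its 95% interval was -0.23 to 0.17 (SE 0.09, adjusted p = 0.849). EIF2AK3-DT, a transcript on the opposite strand within the EIF2AK3 locus, was at 1.68 to 3.65 CPM and its groups overlapped (log2 -0.19, adjusted p = 0.689), while without D it was at -0.58 (adjusted p = 0.0306).

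eIF3, the largest initiation factor, organises the small subunit for mRNA binding. Of its 13 tested genes 11 had a fold change above 0 (84.6%, beside 49.3% of all genes), with a median of 0.19. The 2 that passed (15.4%) are a share near the 14.6% of all genes. EIF3H, a subunit with an MPN domain, was at 512, 537 and 482 CPM with DMSO and 715, 706 and 660 CPM with AVJ16. Its log2 fold change was 0.44 (SE 0.09, adjusted p = 0.0163). It was lost without A or without C, at an adjusted p of up to 0.0997. EIF3M, a subunit with a PCI domain, was at 293, 293 and 305 CPM with DMSO and 373, 390 and 361 CPM with AVJ16. Its rise of 0.33 (SE 0.09, adjusted p = 0.0358) held without D and was lost without any other library, at an adjusted p of up to 0.184. In both genes the treated libraries lay closer to each other than to any DMSO library.

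EIF3E, another PCI subunit, was just outside the threshold, at 796, 799 and 825 CPM against 1142, 997 and 938 CPM (log2 0.35, adjusted p = 0.0578). It passed without D and with DESeq2. EIF3J, a loosely bound subunit, was at 0.31 (adjusted p = 0.0647), and EIF3G, an RNA-binding subunit, at 0.30 (adjusted p = 0.122), and both passed without D (adjusted p = 0.0121 and 0.0473). EIF3K reached 330, 328 and 310 CPM with DMSO, 298 CPM in D, and 466 and 415 CPM in E and F, and passed without D (0.45, adjusted p = 0.000537) and in the quality-weighted model. The other subunits did not pass in either fit, with EIF3D at 0.19, EIF3A at 0.13, EIF3B at 0.06, EIF3F at 0.05, EIF3I at -0.02 and EIF3L at -0.14. EIF3C was at 6.83 to 7.99 CPM (log2 0.05), and because EIF3CL is a near-identical copy its reads could have been split or dropped.

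The 8 eIF3 subunits of the PCI and MPN core had a median of 0.21 with 2 past the threshold in edgeR. The other 5 had a median of 0.19, with none past it in edgeR or DESeq2 and 2 at an unadjusted p under 0.05. In the quality-weighted model 4 of the 8 and 3 of the 5 passed, where 7136 of 16330 genes did. EIF3J-DT starts beside EIF3J on the opposite strand. It was at 10.9, 11.3 and 11.2 CPM with DMSO and 15.4, 18.9 and 14.4 CPM with AVJ16, without overlap. Its rise was 0.54 (SE 0.13, adjusted p = 0.0281), and 0.57 without D, and it was lost without A, B, C or E, at an adjusted p of up to 0.129.

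Among the start-site factors, EIF1B rose and the others did not pass. EIF1B is a close paralog of EIF1, the protein that keeps scanning ribosomes from starting at wrong codons. It was at 91.6, 93.4 and 93.7 CPM with DMSO and 133, 123 and 111 CPM with AVJ16. The rise was 1.32-fold (log2 0.40, SE 0.10, adjusted p = 0.0287), held without D (adjusted p = 0.00409) and was lost without any other library, at an adjusted p of up to 0.145. EIF1 itself was at 602, 590 and 544 CPM with DMSO, 600 CPM in D, and 856 and 776 CPM in E and F. It did not pass with all libraries (0.36, adjusted p = 0.107) and did without D (0.50, adjusted p = 0.000294). EIF1AX, which encodes eIF1A, was at -0.31 (adjusted p = 0.169) and EIF1AD at -0.08.

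No member of the EIF5 and EIF6 class passed in edgeR, with 3 of 6 at an unadjusted p under 0.05, 1 past the threshold in DESeq2 and 4 in the quality-weighted model. EIF5B, the GTPase that joins the ribosomal subunits, came closest, at 233, 235 and 213 CPM with DMSO and 329, 295 and 261 CPM with AVJ16. Its log2 fold change was 0.38 (SE 0.11, adjusted p = 0.0501), and it was the member that passed in DESeq2. EIF5AL1, at 2.87 to 5.26 CPM a near-copy of EIF5A whose reads may be shared with it, was at -0.53 (adjusted p = 0.0612). EIF5A, which carries the hypusine residue and helps ribosomes past difficult peptide bonds, was at -0.30 (adjusted p = 0.206), while its paralog EIF5A2 was at 0.44 (adjusted p = 0.104). EIF5, the GTPase-activating protein of eIF2, was at -0.08. Without D, EIF5B, EIF5AL1 and EIF6 passed, at 0.29, -0.56 and 0.23.

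None of the 13 elongation genes passed in edgeR or DESeq2, with 2 at an unadjusted p under 0.05. The quality-weighted model called 5 of them, beside 7136 of 16330 genes. EEF1A1 and EEF2 were the most abundant members per kilobase, at 3628 ± 106 and 2241 ± 179 CPM per kb with DMSO (SD, n = 3). EEF1B2 followed at 482 ± 37.9, close to EIF5A at 446 ± 32.6 and EIF3K at 418 ± 14.9, neighbours whose spreads meet or nearly meet. EEF1A1, which has many processed pseudogene copies, was at 13146, 12671 and 12412 CPM with DMSO, 13092 CPM in D, and 16796 and 15644 CPM in E and F. Its log2 fold change was 0.25 (SE 0.13, adjusted p = 0.224) and 0.35 without D (adjusted p = 0.00774). EEF2 was at 7094, 7635 and 6504 CPM against 7124, 7475 and 7490 CPM, with a 95% interval of -0.20 to 0.31. The smallest p of the class belonged to EEF1AKMT3, a lysine methyltransferase of eEF1A. It was at 11.6, 9.48 and 10.5 CPM with DMSO and 12.1, 13.7 and 13.8 CPM with AVJ16 (log2 0.33, SE 0.13, adjusted p = 0.118), and it passed without D (adjusted p = 0.0127).

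The exchange factor genes EEF1B2 and EEF1D were at 0.10 and 0.24, EEF1A2 at 0.10, and EEF1E1, a scaffold of the aminoacyl-tRNA synthetase complex, at 0.22. Of these EEF1D passed without D (0.33, adjusted p = 0.00819), and 34.0% of its exonic bases lie opposite another gene's exons. The methyltransferases EEF1AKMT2 and EEF1AKMT4 were at 0.26 and 0.23 and passed without D. EEF1AKMT4 shares 49.2% of its exonic bases with the readthrough EEF1AKMT4-ECE2. EEF1AKMT1, EEF1AKNMT and EEF2KMT were at -0.08, -0.27 and -0.03, and EEF2K, the kinase that inactivates eEF2, was at -0.03. Exons of other genes lie opposite 31.4% of the exonic bases of EEF2KMT, 12.4% of EIF4B, 10.8% of EIF5B, 10.7% of EIF3L, 10.4% of EIF4E2 and 10.2% of EIF2B3. Other genes on the same strand cover 41.1% of EIF3L, 18.8% of EEF1E1, 17.3% of EIF6, 16.4% of EEF1B2, 14.8% of EEF1AKMT2 and 11.2% of EEF1AKMT3.

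Summed over each class, the eIF2 genes stood at 1564, 1568 and 1527 CPM with DMSO. With AVJ16 they stood at 1988, 1819 and 1741 CPM, 1.19 times the DMSO mean. The class mean went from 1553 to 1850 CPM, and the largest part was EIF2S2, from 513 to 777 CPM. The means of EIF2S1 and EIF2A went from 185 to 228 and from 213 to 269 CPM. EIF2S3 went down from 565 to 498 CPM, and EIF2D was at 73.6 and 73.4 CPM. The eIF3 genes went from 4511, 4635 and 4360 CPM to 5416, 5244 and 5096 CPM, 1.17 times. Neither sum overlapped between treatments. The EIF1 genes, at 936, 878 and 897 CPM against 939, 1177 and 1063 CPM, did not overlap but D lay almost on the highest DMSO value. The eIF4 sum was 1.04 times the DMSO mean, the EIF2AK sum 1.12, the EIF2B sum 1.07 and the EIF5 and EIF6 sum 0.962, all with overlap. The elongation genes made up most of the total, at 21474, 21624 and 20057 CPM against 21419 CPM in D and 25751 and 24526 CPM in E and F. All 66 genes together took 3.51 to 3.63% of the counts with DMSO, 3.41% in D, and 3.93 and 3.86% in E and F. Scaling by library size alone moved the all-gene median log2 fold change to -0.116 and turned the sums of eIF4 and EIF2B negative, the former to -0.049 on the log2 scale.

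**Figure D4:**
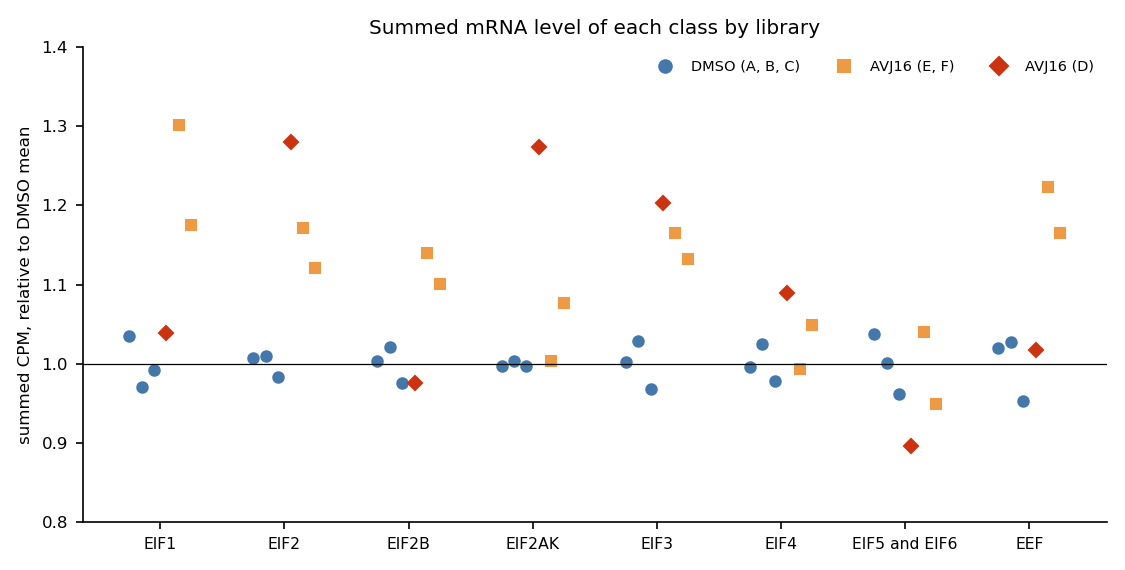
Summed CPM of each class in each library, divided by the mean of the DMSO libraries (y axis, linear, not starting at 0). Circles are DMSO, squares AVJ16 libraries E and F, and diamonds library D. The EIF2 and EIF3 sums lie above all DMSO libraries in each treated library, while for EIF2B and EEF library D lies among the DMSO libraries.

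Genes that act on these factors were read from 7 lists chosen by function, 53 tested genes in all, of which 7 passed (13.2%, beside 14.6% of all genes), with 2 higher and 5 lower. The eIF4E-binding proteins repress initiation by keeping eIF4E from eIF4G, and mTOR complex 1 releases them by phosphorylation. Of 11 tested genes in this list, 3 fell and none rose in edgeR, where 8.77% and 5.87% of all genes did, with a median of -0.07. EIF4EBP2, a repressor of eIF4E, was at 124, 116 and 134 CPM with DMSO and 76.7, 55.2 and 55.8 CPM with AVJ16, 0.503 of the DMSO level. It fell by 0.99 (log2, SE 0.14, adjusted p = 0.00356), without overlap and with D the highest treated library. EIF4EBP1 was at 0.16 (adjusted p = 0.469), and EIF4EBP3 was not tested.

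RPTOR, the substrate-binding subunit of mTOR complex 1, was at 65.5, 66.8 and 66.6 CPM with DMSO and 52.9, 50.4 and 53.6 CPM with AVJ16 (log2 -0.34, SE 0.09, adjusted p = 0.0381). RPS6KB2, a ribosomal S6 kinase downstream of that complex, was at 44.3, 47.7 and 36.7 CPM against 26.1, 33 and 31.3 CPM (log2 -0.51, SE 0.14, adjusted p = 0.0395). In neither gene did the treatments overlap. MTOR itself was at -0.28 (adjusted p = 0.0625, edgeR) and passed without D (-0.29, adjusted p = 0.00766).

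Of the 6 genes around eIF2 phosphorylation, PPP1R15A rose. It encodes GADD34, the stress-induced subunit that directs protein phosphatase 1 to eIF2 alpha. It was at 25.5, 34.8 and 24.3 CPM with DMSO and 79.2, 63.6 and 69.4 CPM with AVJ16, 2.5-fold higher (log2 1.32, SE 0.16, adjusted p = 0.00182). ATF4, the transcription factor whose translation increases when eIF2 is phosphorylated, was at 397, 429 and 361 CPM against 308, 390 and 363 CPM (log2 -0.16, adjusted p = 0.392). GCN1, which activates EIF2AK4, and IMPACT, which restrains it, were at -0.22 and 0.24 and did not pass.

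Among the 5 poly(A)-binding protein genes, PABPC4 rose from 410, 442 and 401 CPM to 557, 507 and 513 CPM (log2 0.33, SE 0.09, adjusted p = 0.0479). PAIP2B, which restrains poly(A)-binding protein, fell from 11.1, 8.62 and 11.4 CPM to 7.54, 6.57 and 7.51 CPM (log2 -0.52, SE 0.15, adjusted p = 0.0479). PAIP1, which links it to eIF4A, was at 0.38 (adjusted p = 0.0514). It passed without D (0.27, adjusted p = 0.0115), in DESeq2, under DESeq2 size factors and in the quality-weighted model. In all 5 genes the treated libraries did not overlap DMSO, as in 37.1% of all genes. Of the 7 scanning and start-site helpers, the helicase DDX3X fell from 387, 353 and 412 CPM to 323, 235 and 272 CPM (log2 -0.47, SE 0.13, adjusted p = 0.0404). MCTS1 was at 0.13 (adjusted p = 0.628, edgeR) and passed without D (0.29, adjusted p = 0.0152). Of the 7 partner calls, EIF4EBP2 and PPP1R15A held with each library left out, at an adjusted p of up to 0.0295 and 0.0155. The calls of RPTOR, RPS6KB2, PABPC4, PAIP2B and DDX3X held without D and were each lost without A, C, E or F. The PAIP2B call was also lost in DESeq2, under its size factors and without the filter, and that of PABPC4 under library size alone, upper-quartile scaling and no filter. The RPTOR call was lost without the filter and that of DDX3X under DESeq2 size factors. PABPC4 has 10.9% of its exonic bases opposite another gene's exons.

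**Figure D5:**
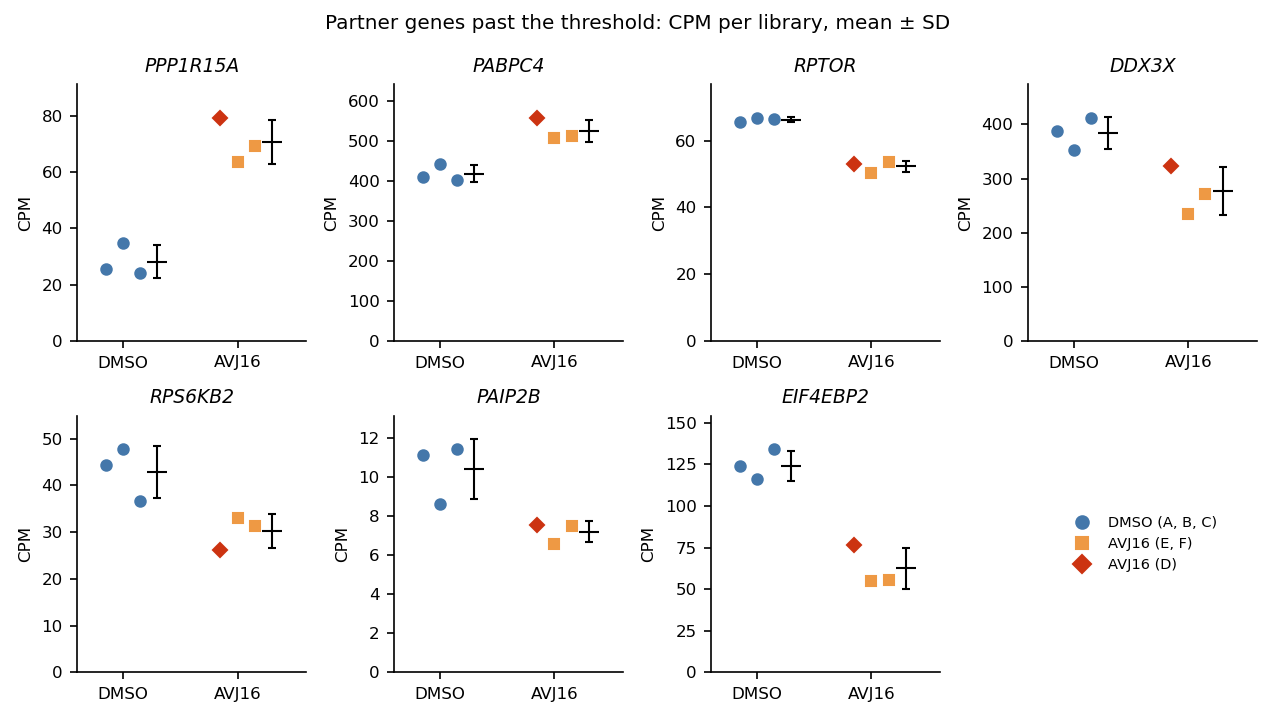
CPM (y axis) in each library for the 7 partner genes past the threshold, with the mean ± SD of each treatment (n = 3) in black. Circles are DMSO, squares AVJ16 libraries E and F, and the diamond library D. PPP1R15A and PABPC4 are higher in all treated libraries, and the other 5 genes are lower.

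In the remaining 3 lists none passed in edgeR or DESeq2. At an unadjusted p under 0.05 was 1 of 9 hypusine and diphthamide enzymes. So were 1 of 6 termination, recycling and rescue factors and 2 of 9 mitochondrial translation factors. The quality-weighted model called 5, 2 and 2 genes of these lists, beside 7136 of 16330 genes. The mitochondrial elongation factor TUFM was at 374, 391 and 338 CPM against 403, 482 and 456 CPM (log2 0.28, adjusted p = 0.111) and passed without D (0.35, adjusted p = 0.00364). MTIF2, the mitochondrial initiation factor, was at 0.30 (adjusted p = 0.0912) and passed without D (0.20, adjusted p = 0.0441). HBS1L, a ribosome rescue factor, was at 0.26 (adjusted p = 0.161), and DPH5, a diphthamide enzyme, at 0.23 (adjusted p = 0.138). Of the first list, DHPS (0.71, adjusted p = 0.00406) and DPH7 (0.24, adjusted p = 0.0346) passed without D in edgeR. DHPS held only 2.24 to 4.2 CPM, and 38.8% of its exonic bases are shared on the same strand with another annotated gene. Its row may therefore not give the level of the gene. Of the second list, PELO (0.24, adjusted p = 0.0468) and GSPT2 (-0.41, adjusted p = 0.0159) passed without D. PELO shares 11.4% of its exonic bases on the same strand with ITGA1.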

How the data were processed

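Per the submitters' processing notes and the study's methods, the authors trimmed reads with cutadapt 2.10, aligned them to GRCh38 (Ensembl release 99) with TopHat2 2.1.1 and counted reads per gene with HTSeq 2.01, keeping genes with a sum of at least 10. The libraries were stranded poly(A) libraries, and the strand and overlap options of the counting step are not given in the sources used here. Deposited counts were used, while the authors' normalised columns (DESeq2 1.36.0) were not. No label gives the treatment of a column letter, so the letters were read from the bar of conditions on a heat map by the authors, and the replicate behind each letter is not known. An empty line was dropped. Of 120 names with the prefixes, 50 pseudogenes and 1 antisense gene were left out, and EIF4EBP1 to EIF4EBP3, whose names end in P and a digit, were read as partners.

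Genes were filtered (filterByExpr, minimum count 10, total 15), TMM-scaled and tested two-sided by the quasi-likelihood F test of edgeR 4.0.16 in R 4.3.3, with Benjamini-Hochberg adjustment over 16330 genes. CPM are TMM-scaled, and for the cell markers unscaled. Intervals use the t distribution with the fit's degrees of freedom. Levels per kilobase use the canonical transcript of GENCODE 44, which held 21906 of the genes. The test was checked on simulated counts, where it recovered 38.8% of 1.5-fold, 76.1% of 2-fold and 97% of 3-fold changes. Of its calls there, 5.37% were false. The simulation drew each gene independently, changed 200 genes and held no library that stood apart as D did. These rates therefore need not hold for the measured counts. Alternatives used DESeq2 1.42.0, limma 3.58.1 with library quality weights, other scalings and filters, and each library left out. Every gene may be named. Per-library values are given for genes past the threshold, the smallest p of each class, the eIF2 kinases, EIF2S1, EIF4E, EIF4A1 and EIF4G1, for up to 3 genes with the smallest p of each partner list, and for others, chosen after their values were seen, where library D or a neighbouring result made them of use. Genes and lists were chosen with earlier results of these data known.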

Additional observations from a re-analysis of the deposited data

How the results depend on the processing

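Of the 9 calls among the factors, EIF4A2 held in all 14 alternatives. The number of factors past the threshold ran from 1 to 31 with each library left out (1 to 23 higher, 0 to 8 lower), and the most came without library D. It was 34 with library quality weights (25 higher, 9 lower), 5 when the limits were an adjusted p of 0.1 and a size of 0.5 on the log2 scale (3 of them higher), and under scaling by library size alone 3 were higher and 4 lower. Over all genes the count ran from 824 to 6250 with a library left out (231 to 2958 higher, 527 to 3292 lower) and was 7136 with quality weights (3399 higher, 3737 lower). Scaling by library size alone gave 523 higher and 2215 lower, so that 19.1% of calls were higher, against 40.1% in the reported fit. The causes of these shifts were not tested, and a fit with a library left out also has fewer libraries.

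Class medians with a library left out ran from 0.085 to 0.17 for EIF1, 0.17 to 0.34 for EIF2, 0.14 to 0.25 for EIF3 and -0.12 to -0.023 for EIF4. With library size alone they were 0.033 for EIF1, 0.075 for EIF3 and -0.16 for EIF4, and with quality weights 0.086 for EIF1 and -0.11 for EIF4. The log2 ratios of summed levels under library size alone were 0.14 for EIF2, 0.11 for EIF3, -0.049 for EIF4 and -0.17 for EIF5 and EIF6.

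No factor or partner gene past the threshold changed direction, and each of the following sign changes was in a gene not called in the reported fit. Under library size alone EEF1A2 was at -0.0061, EEF1B2 at -0.0041, EEF2 at -0.052, EIF3B at -0.052, EIF3C at -0.057, EIF3F at -0.0586 and EIF4A1 at -0.0123. With DESeq2 size factors EIF2D was at 0.0129, EIF4E at 0.0145, EIF4G3 at 0.0148 and EIF6 at 0.0115, and with the DESeq2 test they were at 0.0138, 0.0157, 0.0159 and 0.0119. With quality weights EEF2KMT was at 0.032, EIF2D at 0.0515, EIF2S3B at -0.11, EIF3A at -0.0764, EIF3I at 0.0421 and EIF6 at 0.11. With a library left out the ranges were -0.13 to 0.0099 for EEF1AKMT1, -0.026 to 0.50 for EEF1AKMT4, -0.0004 to 0.12 for EEF2, -0.12 to 0.081 for EEF2KMT, -0.575 to 0.064 for EIF2AK3-DT and -0.046 to 0.014 for EIF2AK4. They were -0.097 to 0.089 for EIF2D, -0.20 to 0.37 for EIF2S3B, -0.17 to 0.29 for EIF3A, -0.068 to 0.20 for EIF3F and -0.12 to 0.11 for EIF3I. They were -0.11 to 0.34 for EIF4A1, -0.064 to 0.069 for EIF4E, -0.20 to 0.11 for EIF4G3 and -0.19 to 0.23 for EIF6.

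No paired analysis was possible because the columns of the table carry no replicate numbers. With 3 libraries per treatment, the intervals beside EIF4E and EEF2 show the size of change that could not be told from none. Rows of EIF4A1, EIF3C, EIF5AL1 and EIF2S3B share sequence with other genes and do not give levels of those genes.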
